A study of Mus musculus with 124 samples.

Results

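The genes described here are the 10 members of the Shank (Shank1, Shank2, Shank3), Dlg (Dlg1, Dlg2, Dlg3, Dlg4) and Dlgap (Dlgap1, Dlgap2, Dlgap3) families that are listed by symbol in the cortex table, out of 17108 named genes. They were chosen by name with earlier results of these data known, and all 10 were measured. Gene expression was measured by RNA sequencing of cerebral cortex in 62 mice, 1 library per mouse, and the values are log2 CPM, that is, log2 of a gene's reads scaled to a fixed library total. The mice were 11 to 12 weeks old, had free access to food and lived under 12 h of light and 12 h of darkness. The labels give no strain or genotype.

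Sleep was prevented in 36 mice (SD) by gentle handling during the first 6 h of light. Times are written T, counted in hours from light onset on the day before, so that deprivation ran from T24 to T30. Of these mice, 3 each were sampled 3 h into deprivation (T27), or as it ended (T30). Recovery was sampled later that day (T36 and T42), on the next day (T48, T54, T60 and T66), on the day after (T72 and T78) and a week after deprivation (T192 and T198), again with 3 mice at each time. The 26 non-sleep-deprived controls (NSD) were sampled from light onset on the day before up to T24, and their zeitgeber time (ZT) counts hours from light onset. There were 8 controls at ZT0, 3 at ZT3, and 5 each at ZT6, ZT12 and ZT18. The ZT0 controls pool mice labelled at light onset on the day before with mice labelled T24, the hour at which deprivation began. Each deprived group was compared with the control of the same time of day, so T30, T54, T78 and T198 share the ZT6 controls, T36 and T60 share ZT12, T42 and T66 share ZT18, and T48, T72 and T192 share ZT0. The labels split the cortex libraries into batch 1 (40) and batch 2 (22). All T60, T66, T192 and T198 libraries were in batch 2, the other deprived libraries were in batch 1, and the ZT3 controls were in batch 1 alone. Libraries are named by their animal code. Library sums lay between 979177 and 1020372 CPM, and the read depth is unknown.

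These genes encode the layered scaffold under excitatory synapses. Dlg proteins, among them the postsynaptic density protein encoded by Dlg4, lie next to the membrane and hold glutamate receptors and adhesion molecules through their PDZ domains. Dlgap proteins bind the guanylate kinase-like domain of the Dlg proteins and link them to the Shank proteins, which lie deepest and connect to Homer proteins and the actin skeleton. Markers of the labelled tissue were present. The excitatory marker Slc17a7 had a mean of 10.11 log2 CPM over the 62 libraries, and of 3 liver markers only Alb was listed, with a mean of −3.71 log2 CPM.

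In undisturbed mice, the scaffold genes differed in level and in how far they moved over the day. Per kilobase of merged exon, Shank1 had the highest control mean, 6.27 ± 0.12 log2 CPM per kb, followed by Dlgap3 with 6.08 ± 0.18 and Dlg4 with 5.75 ± 0.07 (SD, n = 26 each). Dlgap1 (5.22 ± 0.04), Dlg3 (5.17 ± 0.05) and Dlg2 (5.03 ± 0.05) came next on the same scale, and then Shank2 (4.88 ± 0.20), Shank3 (4.79 ± 0.15), Dlg1 (4.49 ± 0.07) and Dlgap2 (3.89 ± 0.10). Dlgap1 and Dlg3, Dlg2 and Shank2, and Shank2 and Shank3 are neighbours in this order that lie within the larger SD of the pair, and the other neighbours are further apart than that. The merged exons of all annotated transcripts set the length, so the order depends on the isoforms that these gene-level values do not separate.

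Across the 5 control times, 6 of the 10 members changed with time of day (limma F test, Benjamini-Hochberg adjustment over 17108 genes), against 41.9% of all genes. With the 20% of genes of lowest mean left out, 6571 of 13686 genes passed. The 3 Shank genes, Dlg1, Dlg4 and Dlgap3 had their highest control mean at ZT18, in the dark phase when mice are mostly awake. Shank2 averaged 8.59 ± 0.08 log2 CPM at ZT18 and 8.10 ± 0.14 at ZT6 (SD, n = 5 each), a range of 0.49 or 1.40-fold (adjusted p = 3.85e-09). Dlgap3 ranged over 0.36 (ZT18 over ZT12, adjusted p = 1.40e-05), Shank3 over 0.33 (ZT18 over ZT6, adjusted p = 2.40e-05) and Shank1 over 0.28 (ZT18 over ZT6, adjusted p = 0.00212). The ranges of Dlg4 (0.15, adjusted p = 0.0134) and Dlg1 (0.14, adjusted p = 0.0430) were narrower. Dlg3 (0.09, adjusted p = 0.0528), Dlgap1 (0.08, 0.0724), Dlg2 (0.10, 0.124) and Dlgap2 (0.09, 0.707) did not pass, and the Dlgap1 mean was lowest at ZT18 and highest at ZT6. With batch 1 controls alone, 3 members passed, namely Shank2, Shank3 and Dlgap3. Over the 17108 genes, 4835 passed in that setting, in place of 7162. The call of Dlg4 was lost without the ZT18 library T18N3 (adjusted p = 0.0545), and that of Dlg1 without any of T0N2, T0N3, T3N2, T6N2, J76N1, J76N2, T12N1, T12N2, T12N6, T18N3, T18N4, T18N7 and T18N8, which are 13 of the 26 controls (adjusted p up to 0.0955).

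As the 6 h of deprivation ended (T30), scaffold RNA was mostly higher than in undisturbed mice at ZT6. Of the 10 members, 7 rose and 1 fell in the limma test, where 15.7% of all genes rose and 16.8% fell. The Shank genes rose most, by 1.39-fold (Shank2), 1.30-fold (Shank1) and 1.27-fold (Shank3), followed by Dlgap3 at 1.25-fold. Dlgap1 fell by 9.03%. The median log2 fold change was 0.17 over the members and −0.01 over all genes. In whole tissue, fewer cells of a type and less RNA per cell cannot be told apart. With batch 1 controls alone, 6 members rose and Dlgap1 fell, Dlg3 being the one lost (adjusted p up to 0.187 over the settings that lose it). Of the 17108 genes, 2346 rose and 2437 fell with batch 1 controls.

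Shank2, which encodes a master scaffold that joins the Dlgap layer to Homer and actin, lies on chromosome 7 from 144001928 to 144424494 (build GRCm38). Its T30 libraries had 8.55, 8.53 and 8.63 log2 CPM, against 8.08, 8.05, 8.08, 8.33 and 7.96 log2 CPM in the ZT6 controls. Every deprived library was above every control, and the highest control was library T6N3. The log2 fold change was 0.47 ± 0.07 (SE, adjusted p = 5.54e-07).

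Shank1 (chromosome 7, 44310253 to 44360572) encodes the family member found chiefly in brain. It had 9.89, 9.87 and 9.95 log2 CPM at T30, against 9.52, 9.48, 9.54, 9.68 and 9.41 log2 CPM in the ZT6 controls. The groups did not overlap, T6N3 was again the highest control, and the log2 fold change was 0.38 ± 0.07 (adjusted p = 5.51e-05). Shank3 (chromosome 15, 89499623 to 89560261), whose human counterpart is lost in Phelan-McDermid syndrome, a developmental disorder, had 8.13, 8.13 and 8.29 log2 CPM at T30, against 7.90, 7.77, 7.77, 8.04 and 7.74 log2 CPM in the controls. These groups did not overlap either, and the log2 fold change was 0.34 ± 0.07 (adjusted p = 0.000127). The exons of Shank1 and Shank3 each overlap a gene on the opposite strand, 1700008O03Rik over 339 bases (3.22% of the Shank1 exons) and Gm15609 over 271 bases (2.95% of the Shank3 exons). The sources used here do not say how reads in such overlaps were counted.

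In the Dlgap family 1 member rose and 1 fell. Dlgap3 (chromosome 4, 127169204 to 127237022), a linker abundant in cortex and striatum, had 8.36, 8.44 and 8.46 log2 CPM at T30, against 8.21, 7.94, 8.05, 8.40 and 7.92 log2 CPM in the ZT6 controls. The lowest deprived library lay below the control T6N3 and above the other controls, and the log2 fold change was 0.32 ± 0.08 (adjusted p = 0.00169). Fitted with the T30 and ZT6 libraries alone, this call was lost (adjusted p = 0.0514). Dlgap1 (chromosome 17, 69969073 to 70821413) had 9.26, 9.28 and 9.33 log2 CPM at T30, against 9.41, 9.42, 9.43, 9.44 and 9.44 log2 CPM in the controls. Every deprived library was below every control, by a log2 fold change of −0.14 ± 0.04 (adjusted p = 0.00280). The share of all genes that lay wholly below their controls at T30 was not counted. Dlgap2 (chromosome 8, 14095865 to 14847680) had 6.48, 6.73 and 6.76 log2 CPM at T30, against 6.45 to 6.61 in the controls, and did not pass (0.13, 95% interval −0.03 to 0.30, adjusted p = 0.203).

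The Dlg genes had log2 fold changes from 0.09 to 0.19, below those of the Shank genes and Dlgap3. Dlg4 (chromosome 11, 70016942 to 70047522), the most used marker of the excitatory postsynapse, had 9.59, 9.60 and 9.62 log2 CPM at T30, against 9.41, 9.41, 9.40, 9.51 and 9.36 log2 CPM in the ZT6 controls. All deprived libraries were above all controls, by a log2 fold change of 0.19 ± 0.05 (adjusted p = 0.00214). Dlg1 (chromosome 16, 31663443 to 31875129), which encodes a scaffold of synapses and of epithelial cell contacts, had 8.05, 8.04 and 8.08 log2 CPM at T30, against 7.81 to 7.98 (median 7.89) in the controls, again without overlap (0.16 ± 0.05, adjusted p = 0.00621). Dlg3 (chromosome X, 100767722 to 100818410), whose human counterpart is linked to intellectual disability, had 7.72, 7.81 and 7.80 log2 CPM at T30, against 7.64 to 7.76 in the controls. These groups overlapped, the log2 fold change was 0.09 ± 0.03 (adjusted p = 0.0366), and the call was lost without any of the libraries T6N2, T6N4, J76N2, T30S3 or T30S4 (adjusted p up to 0.164). Dlg2 (chromosome 7, 90476672 to 92449247), a paralogue of Dlg4 at the same synapses, had 9.13, 9.10 and 9.11 log2 CPM at T30, against 8.98 to 9.09 in the controls, and did not pass (0.09, 95% interval 0.01 to 0.17, adjusted p = 0.0805).

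In all, 6 members had every T30 library above every ZT6 control, as did 16.0% of all genes. They are the 3 Shank genes, Dlg1, Dlg2 and Dlg4. The control T6N3 was the highest ZT6 library for these genes except Dlg2, and for Dlgap3. Without it the log2 fold changes of the Shank genes, Dlg1, Dlg4 and Dlgap3 at T30 still passed, as they did without each of the other T30 and ZT6 libraries. Over all single libraries left out, 7 or 8 members passed at T30.

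**Figure D1:**
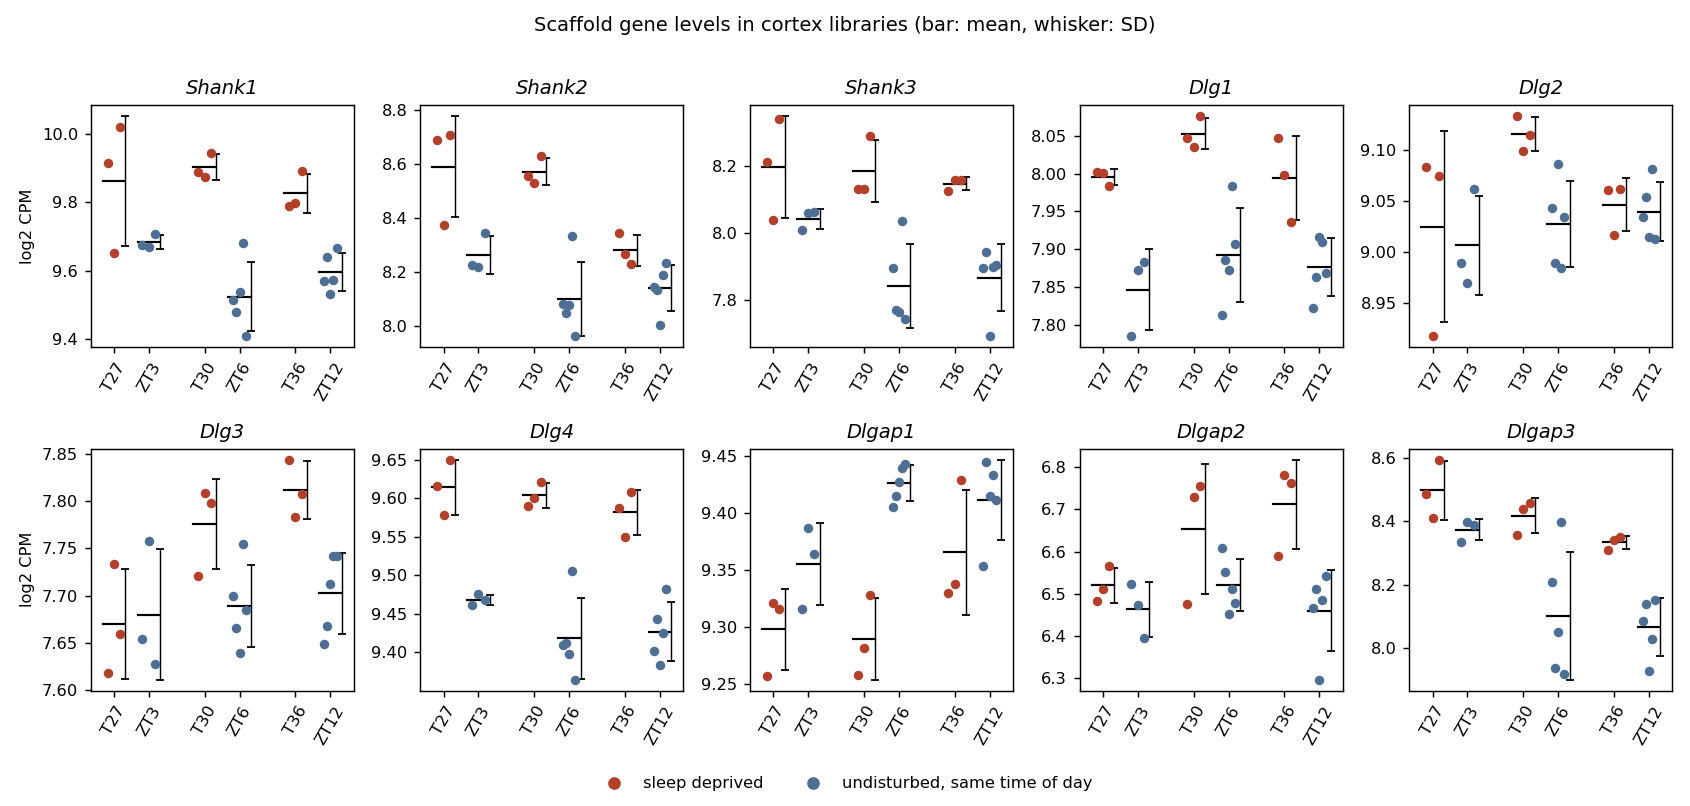
Level of each scaffold gene (log2 CPM, y axis, scaled per gene) in every cortex library of T27, T30 and T36 (red) and of the ZT3, ZT6 and ZT12 controls (blue), with the mean as a bar and the SD as a whisker. At T30 the 3 Shank genes, Dlg1, Dlg2 and Dlg4 have every deprived library above every control, as do 16.0% of all genes. Dlgap1 has every deprived library below, for which the share of all genes was not counted.

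Because a ratio of members within a library carries no library scaling, the 12 pairs within a family were also compared at T30. The log2 ratio of Dlgap1 to Dlgap3 averaged 0.87 ± 0.03 at T30 (SD, n = 3) and 1.33 ± 0.20 at ZT6 (SD, n = 5), a difference of −0.45. Shank2 over Shank3 averaged 0.39 ± 0.04 at T30 and 0.26 ± 0.05 at ZT6, a difference of 0.13. The other pairs whose groups did not overlap were Shank1 over Shank2 (−0.09), Dlg3 over Dlg4 (−0.10) and Dlgap1 over Dlgap2 (−0.27). For each of these 5 pairs the exact permutation test (two-sided) gave p = 0.0357, the smallest that 56 splits of 8 libraries can give here. After adjustment over the 12 pairs none passed (0.0857 for each of the 5). Because 5 pairs at the smallest p cannot pass this adjustment, the test does not decide whether these ratios differed.

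Already after 3 h of deprivation (T27), 3 of the 10 members had risen and none had fallen, against 8.59% of all genes higher and 7.84% lower. The median log2 fold change was 0.13 over the members and −0.0068 over all genes. Shank2 had 8.69, 8.38 and 8.71 log2 CPM at T27, against 8.22, 8.22 and 8.34 log2 CPM in the ZT3 controls. The groups did not overlap, although T27S3 was close to the highest control (log2 fold change 0.33 ± 0.08, adjusted p = 0.00146). Dlg1 (0.15 ± 0.05, adjusted p = 0.0348) and Dlg4 (0.15 ± 0.05, adjusted p = 0.0460) also passed. Shank1 (0.18, adjusted p = 0.118), Shank3 (0.15, 0.169) and Dlgap3 (0.12, 0.369) did not, and T27S3 had the lowest T27 value for all of these.

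Without T3N2, T27S2 or T27S5, Shank2 was the 1 member that still passed at T27. All 6 libraries are in batch 1, and with the controls of the 2 batches kept as separate groups in the fit 2 members passed, Shank2 and Dlg1. In that fit 2777 of the 17108 genes passed. The Dlg4 call was lost without any 1 of the 6 libraries (adjusted p up to 0.154), and the Dlg1 call without T3N2, T27S2, T27S3 or T27S5 (up to 0.178). In all, 4 members had every T27 library above every ZT3 control, as did 17.3% of all genes. The ZT3 controls also differed from the T27 libraries in choroid plexus markers, of which 3 of 5 were listed and 2 fell at T27. Their summed level was 2.24 to 2.66 log2 CPM at T27 and 3.02 to 6.94 at ZT3, and their part in the scaffold values was not tested. In the test of the change at T30 minus the change at T27 (limma), 0 of the 10 members passed, as against 0.00585% of all genes, and 0 had an unadjusted p under 0.05. For Shank1 that difference was 0.20 (95% interval −0.02 to 0.42).

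Into recovery, at T36, 6 of the 10 members were higher than at ZT12 and none was lower, against 6.90% and 5.58% of all genes. The median log2 fold change was 0.15 over the members and −0.0031 over all genes. With batch 1 controls alone 6 members also passed, as did 1774 of the 17108 genes. Shank3 had 8.12, 8.16 and 8.16 log2 CPM at T36, against 7.90, 7.94, 7.69, 7.90 and 7.90 log2 CPM in the ZT12 controls. No library overlapped, and the log2 fold change was 0.28 ± 0.07 (adjusted p = 0.00425). Dlgap3 (0.27 ± 0.08, adjusted p = 0.0197), Dlgap2 (0.25 ± 0.08, 0.0285), Shank1 (0.23 ± 0.07, 0.0281), Dlg4 (0.15 ± 0.05, 0.0245) and Dlg3 (0.11 ± 0.03, 0.0206) passed as well. For 7 members, the 6 called and Dlg1, every T36 library was above every ZT12 control, as for 10.5% of all genes. The count of calls hung on single libraries, with 2 left without T12N4, T36S1 or T36S4 and 3 without T12N1 or T36S2. Among the members only Shank3 passed whichever of these 8 libraries was left out (adjusted p up to 0.0304).

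Shank2, the member with the largest change at T30, did not pass at T36. It had 8.34, 8.27 and 8.23 log2 CPM at T36, against 8.14, 8.13, 8.00, 8.19 and 8.23 log2 CPM in the ZT12 controls. The lowest deprived library lay just under the highest control, and the log2 fold change was 0.14 ± 0.07 (adjusted p = 0.192). The test of the difference between the changes at T36 and at T30 passed for Shank2 alone among the 10 members (−0.33 ± 0.10, adjusted p = 0.0148), against 12.2% of all genes. It was lost with batch 1 controls alone (adjusted p = 0.141) and without library T30S4 (0.0512). For Shank1 the difference was −0.15 (95% interval −0.35 to 0.05) and for Shank3 −0.06 (−0.26 to 0.13).

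**Figure D2:**
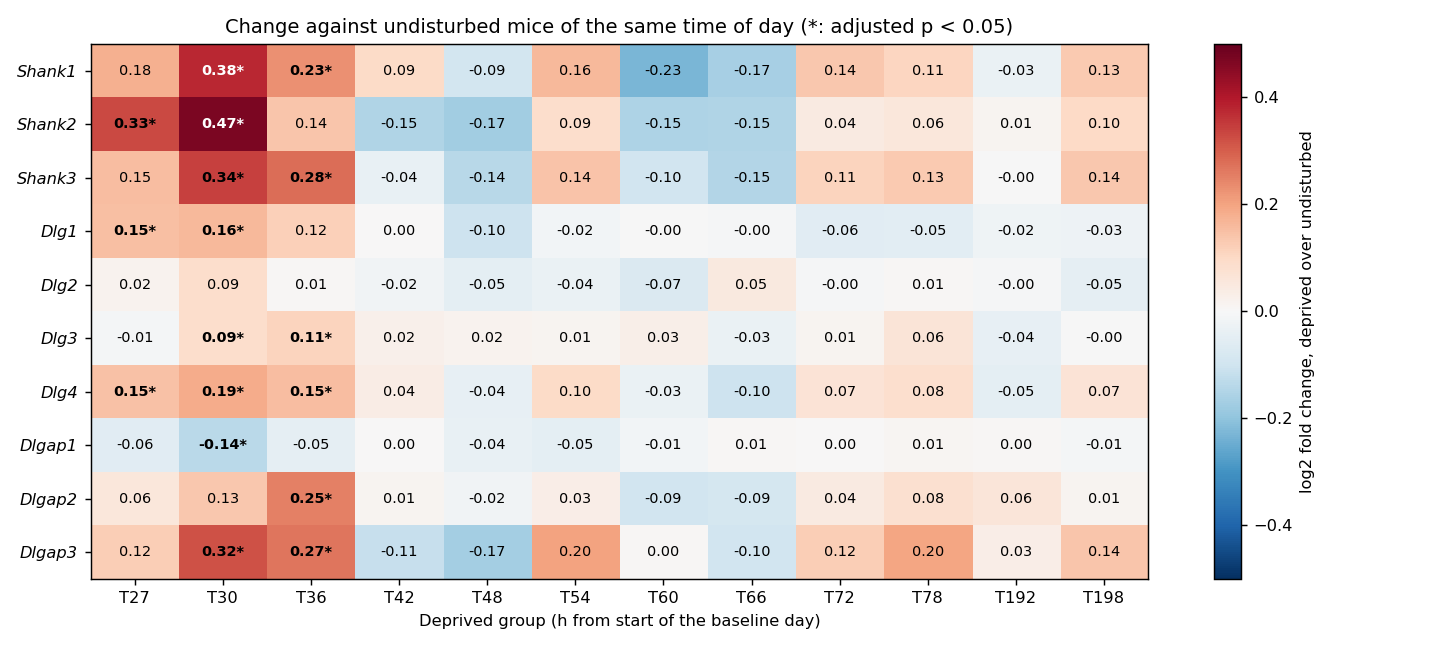
Log2 fold change of each scaffold gene (down the page) in each deprived group over the control of the same time of day (across, T in hours), with an asterisk where the adjusted p was under 0.05. Calls are present at T27 (3), T30 (8) and T36 (6) and at none of the later times.

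From T42 on no member passed in limma. At T42, 1.03% of all genes were called, and 1 member had an unadjusted p under 0.05 (as did 2095 of the 17108 genes), Shank2 with −0.15 (adjusted p = 0.361). At T48, 1.49% of all genes were called and 4 members had an unadjusted p under 0.05, as did 2263 of the 17108 genes. Shank2 had all 3 T48 libraries at 8.21 log2 CPM, below all 8 ZT0 controls (8.29 to 8.48, median 8.37), and its change of −0.17 did not pass the adjusted test (adjusted p = 0.190). Shank2 was the 1 member whose T48 and ZT0 libraries did not overlap. The share of all genes without overlap at T48 was not counted. From T54 to T198 the whole table held 0 calls at T54 (0% of genes), T60 (0%), T66 (0%), T72 (0%), T78 (0%), T192 (0%) and T198 (0%), while 902 to 1750 genes had an unadjusted p under 0.05, of which chance alone would give about 855. The members with an unadjusted p under 0.05 numbered 4 at T54, 2 at T60, 4 at T66, 0 at T72, 1 at T78, 0 at T192 and 0 at T198. Over the 17108 genes the numbers were 1750, 1198, 1627, 1067, 902, 1081 and 1489, in the same order.

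The sign of the Shank differences varied over the second recovery day. Shank1 differed by 0.16 at T54, −0.23 at T60 and −0.17 at T66 on the log2 scale (adjusted p = 0.453, 0.522 and 0.476). Its T60 libraries lay between 9.31 and 9.47 log2 CPM, all below the ZT12 controls (9.53 to 9.67, median 9.57). Dlg2 also lay wholly below its controls at T60, and wholly above them at T66. The share of all genes that separated from their controls at T60 or T66 was not counted. At T54, 4 members passed when library T54S4 was left out, and 0 passed with any other library of that comparison left out. How many of all genes passed without T54S4 was not counted, so the 4 cannot be set against a share. The T60, T66, T192 and T198 groups lie in batch 2 alone. A test over all 12 deprived times together passed for 6 members, the 3 Shank genes, Dlg1, Dlg4 and Dlgap3, against 35.2% of all genes. With the 20% of genes of lowest mean left out, 5558 of 13686 genes passed that test.

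**Figure D3:**
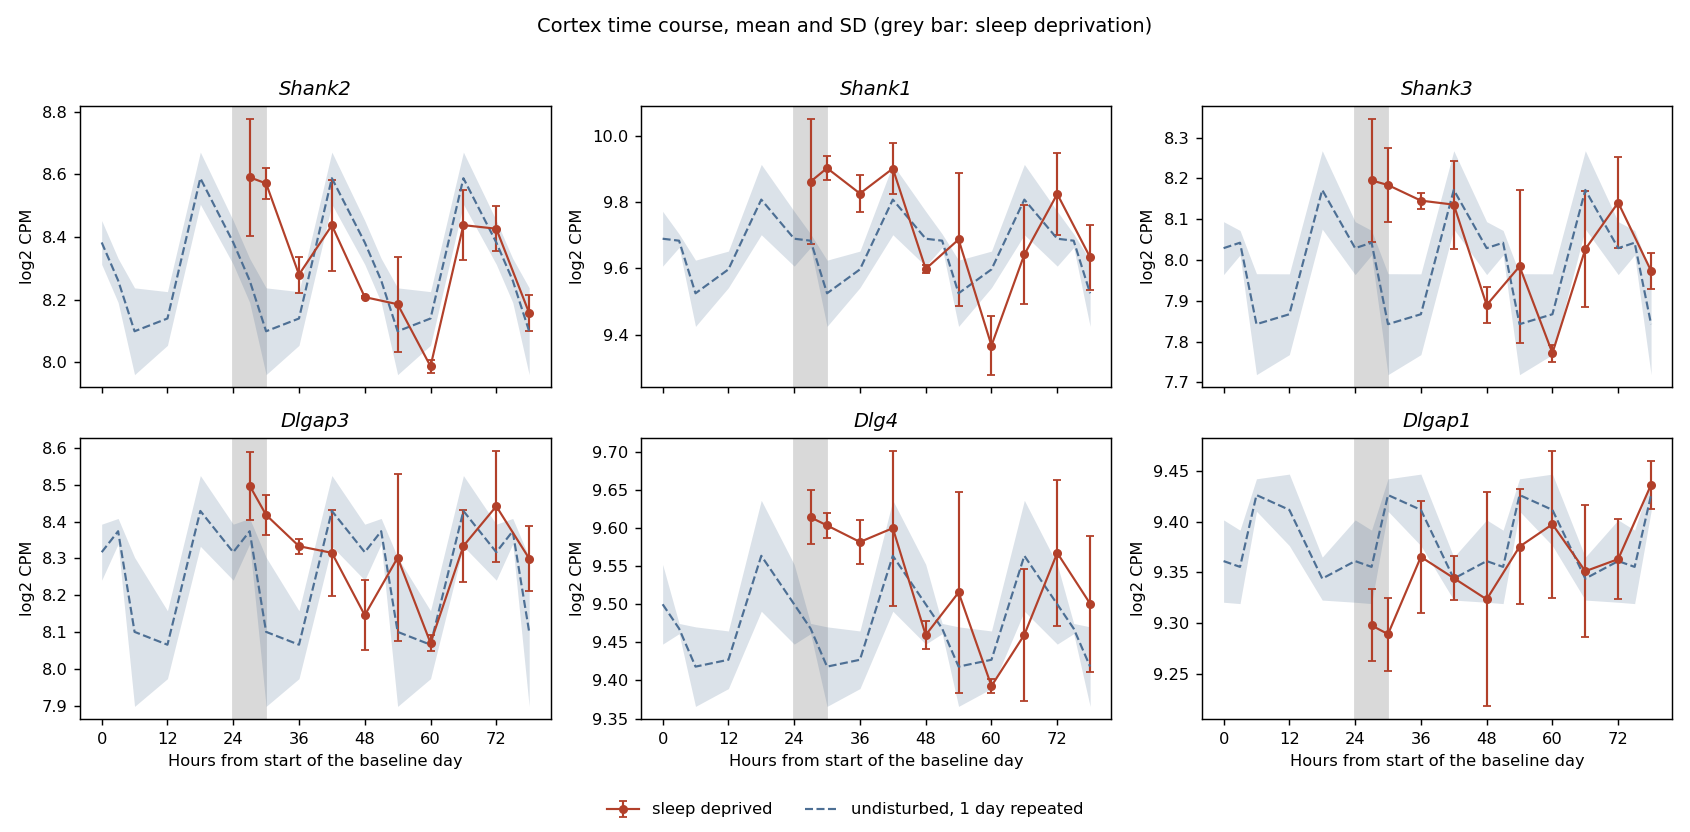
Mean level (log2 CPM, SD as whisker or band) of 6 scaffold genes in deprived mice (red) and in undisturbed mice (blue, the 5 control times of 1 day repeated) against time in hours, with the deprivation in grey. T192 and T198 are not drawn. Shank2 stands at 8.57 at T30 and at 8.59 in the ZT18 controls, against 8.10 in the ZT6 controls.

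The T30 levels of the genes that changed were set beside their levels in undisturbed mice at ZT18. Shank2 averaged 8.57 ± 0.05 log2 CPM at T30 (SD, n = 3), beside 8.59 ± 0.08 at ZT18 (SD, n = 5). Dlgap3 averaged 8.42 ± 0.05 at T30 beside 8.43 ± 0.10 at ZT18, and Shank3 8.18 ± 0.09 beside 8.17 ± 0.10. Shank1 averaged 9.90 ± 0.04 at T30 beside 9.81 ± 0.11 at ZT18, and Dlg1 8.05 ± 0.02 beside 7.98 ± 0.07. Both were further above ZT18 than the others that rose, with Dlg4 at 9.60 ± 0.02 beside 9.56 ± 0.07 and Dlg3 at 7.78 ± 0.05 beside 7.77 ± 0.03. Dlgap1, which fell, averaged 9.29 ± 0.04 at T30 beside 9.34 ± 0.02 at ZT18. Whether T30 and ZT18 differ was not tested.

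Over the 62 libraries, which share normalization and the same groups, the Shank genes, Dlg4 and Dlgap3 varied together. The highest Pearson r among members was 0.93 for Shank1 and Shank3, with 0.93 for Shank3 and Dlgap3 and 0.92 for Shank1 and Dlg4. Dlgap1 ran against this set, with r = −0.55 for Shank2. Among all genes, the patterns close to Shank1 included that of Shank3 (r = 0.93). Shank2 was most like Mapk11 (0.93) and Shisa7 (0.92), Shank3 like Adgrb1 (0.94), Dlg4 like Shank1 (0.92) and Insyn1 (0.91), and Dlgap3 like Shank3 (0.93) and Grk2 (0.92). The other members had less close matches, namely Dlg1 with Arih1 (0.82) and Rgs7bp (0.82), Dlgap1 with Lrrc8b (0.83) and Ppp3ca (0.80), Dlgap2 with Plxna4 (0.76) and Adgrl3 (0.73), Dlg3 with Eif4g1 (0.76) and Atp2a2 (0.71), and Dlg2 with Vps37a (0.75) and Aak1 (0.74).

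The promoter windows of Shank3 and Dlgap3, a pair whose levels varied together, are shown because they are unlike in composition. They come from RefSeq on GRCm38.p6 and cover the 250 bases before a start site, on the plus strand. The Shank3 window is chr15:89499358-89499607 with 82.4% G and C, and the Dlgap3 window is chr4:127172630-127172879 with 46.8%, beside a median of 52.4% over 32851 promoters. Capitals mark a match to the motif of the EGR activity factors (GCGTGGGCG, found on the minus strand, at −146 to −138 from the start).
Shank3: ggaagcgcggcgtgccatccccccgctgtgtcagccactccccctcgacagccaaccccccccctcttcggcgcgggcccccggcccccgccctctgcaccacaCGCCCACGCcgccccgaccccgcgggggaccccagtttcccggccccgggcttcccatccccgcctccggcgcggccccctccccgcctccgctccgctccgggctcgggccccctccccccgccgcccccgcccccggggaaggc
Dlgap3: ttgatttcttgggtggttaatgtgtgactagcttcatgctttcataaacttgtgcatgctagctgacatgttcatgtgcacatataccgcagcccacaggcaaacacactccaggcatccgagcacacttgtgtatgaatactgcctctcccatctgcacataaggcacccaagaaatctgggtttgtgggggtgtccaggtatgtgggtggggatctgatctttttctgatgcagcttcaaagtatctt

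The EGR letters occur in 0.536% of all windows of this length. The other motifs searched on both strands were the cyclic AMP response element CRE (TGACGTCA, in 1.55% of all windows), its core (TGACG, 17.8%, which the full element contains), the E-box (CACGTG, 6.02%), AP-1 (TGANTCA, 6.75%) and the heat shock element (GAANNTTC, 6.69%). The table holds 16 windows for 7 members, all but Shank1, Shank2 and Dlgap2. Dlg4 had the core letters in 1 of its windows, at −76 to −72 from the start, and Dlg3 at −78 to −74. An E-box was present in 2 windows of Dlg1 and 1 of Dlgap1, and a heat shock element in 1 window each of Dlg1 and Dlg2. None of the motifs was in the Dlgap3 window, and the bases before the annotated start of that gene were not searched. A match is a run of letters, not a shown binding site.

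The proteins around the scaffold were described with lists of partners, receptors and enzymes. Of 26 scaffold partners and regulators, 14 rose and 1 fell at T30, where 15.7% of all genes rose and 16.8% fell (median log2 fold change 0.13, against −0.01 over all genes). Homer1, the adaptor that binds Shank proteins and has an activity-induced short form, rose by 1.22 ± 0.16 on the log2 scale (SE, adjusted p = 5.65e-08). Baiap2, an actin regulator that binds Shank, rose by 0.43 ± 0.07 (adjusted p = 4.56e-06), Arhgef7, a guanine nucleotide exchange factor that also binds Shank, by 0.38 ± 0.05 (1.25e-07), and Sipa1l1, a Rap regulator of spines, by 0.27 ± 0.05 (2.19e-05). At T27 6 of the 26 rose and 2 fell (8.59% and 7.84% of all genes), and at T36 8 rose and 1 fell (6.90% and 5.58% of all genes). Baiap2 differed by −0.0033 at T36 (adjusted p = 0.984), while Sipa1l1 was still higher by 0.27 (adjusted p = 8.65e-05). Among relatives of the members, Dlgap4, also counted among the partners, rose at T30 (0.34 ± 0.07, adjusted p = 0.000162) and Dlg5 did not pass (0.16, 0.0547).

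Of 20 glutamate receptor, auxiliary and adhesion genes, 6 rose and 3 fell at T30 (median 0.05), against the same 15.7% and 16.8% of all genes. Cacng2, which encodes the receptor-anchoring protein stargazin, rose by 0.39 ± 0.06 (adjusted p = 4.96e-06), the synaptic adhesion genes Lrrtm3 and Lrrtm1 rose by 0.36 ± 0.06 and 0.30 ± 0.07, and the AMPA receptor subunit gene Gria4 fell by 0.19 on the log2 scale. Of 20 enzymes that act on scaffolds, 7 rose and 1 fell (median 0.03, with 15.7% and 16.8% of all genes), with Plk3, a polo-like kinase, up by 0.96 ± 0.20, the ribosomal S6 kinases Rps6ka2 and Rps6ka3 up by 0.47 ± 0.08 and 0.25 ± 0.05, and the kinase subunit gene Camk2g lower (−0.27 ± 0.04). Of 24 presynaptic active zone and vesicle genes, 6 rose and 2 fell (median −0.0016), 8 called in all beside 5550 of the 17108 genes, a share close to that of the list. They include Unc13a (0.27 ± 0.05) and Erc1 (0.23 ± 0.04), which act at vesicle release sites, Nrxn2 (0.29 ± 0.07), a presynaptic adhesion gene, and the calcium sensor gene Syt1 (−0.18 ± 0.04). These lists hold different numbers of genes, and no test compared them.

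**Figure D4:**
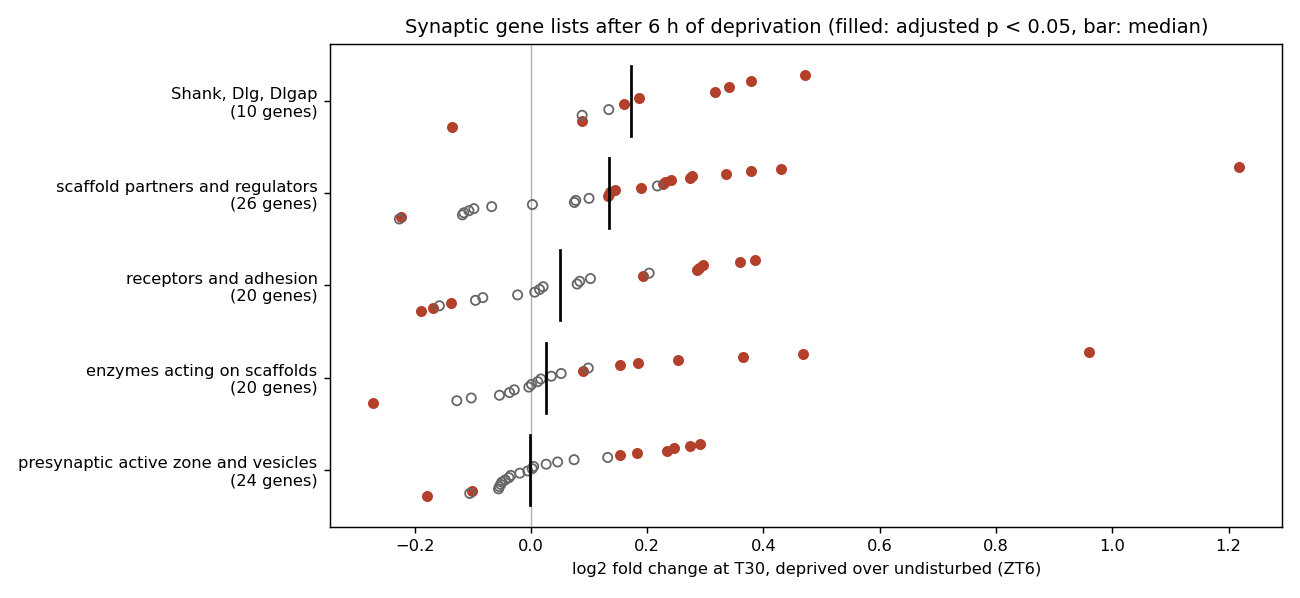
Log2 fold change at T30 (deprived over ZT6 controls, x axis) of each gene in the scaffold set and in 4 lists of synaptic genes, filled where the adjusted p was under 0.05, with the list median as a bar. The medians are 0.17 for the scaffold genes, 0.13 for partners, 0.05 for receptors and adhesion, 0.03 for enzymes and −0.0016 for presynaptic genes.

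Cell type markers were read beside the T30 result. The summed excitatory neuron markers (5 genes) were at 10.64 to 10.71 log2 CPM at T30 and 10.64 to 10.75 at ZT6, with 1 marker higher and 1 lower. The inhibitory neuron markers (6 genes) were at 9.73 to 9.79 log2 CPM at T30 and 9.69 to 9.77 at ZT6, with 1 higher. Astrocyte markers (0 of 6), endothelial markers (0 of 3) and striatal markers (0 of 4) did not pass, 1 of 6 oligodendrocyte markers was lower, and of 6 microglial markers 1 was higher and 2 were lower. Summed microglial markers were at 7.697 to 7.746 log2 CPM at T30 and 7.752 to 7.805 at ZT6, without overlap, and their part in the scaffold values was not tested.

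Markers moved at T36 as well. Summed inhibitory neuron markers were at 9.755 to 9.785 log2 CPM at T36 and 9.694 to 9.729 at ZT12, without overlap, with 1 of 6 higher. Summed endothelial markers were at 7.02 to 7.11 log2 CPM at T36 and 6.79 to 7.03 at ZT12, with 1 of 3 higher. Summed oligodendrocyte markers were at 11.00 to 11.11 log2 CPM at T36 and 11.09 to 11.44 at ZT12, with 0 of 6 called. Excitatory markers were at 10.65 to 10.77 log2 CPM at T36 and 10.66 to 10.77 at ZT12, with 0 of 5 called. The part of these markers in the T36 scaffold values was not tested.

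In the liver table of the same mice, normalised apart from cortex, 6 of the 10 members were listed (Shank2, Shank3, Dlg1, Dlg3, Dlg4, Dlgap1). Liver Shank2 averaged 3.78 ± 0.24 log2 CPM at T30 (SD, n = 3) and 4.55 ± 0.13 at ZT6 (SD, n = 5), with every T30 library (3.53 to 4.01) below every control (4.37 to 4.71). The other 5 overlapped between the groups. No test was run in liver, and the share of all liver genes that lay wholly below their controls was not counted.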

How the data were processed

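Cortex RNA was sequenced in 62 libraries, 1 per mouse, so that replicates are separate animals by their codes. The submitters' processing notes name fastp, STAR 2.7.0e and edgeR and the build GRCm38 (mm10), without settings. The labels' protocol text describes liver, and the cortex libraries are labelled as a re-analysis of earlier data, so the sources used here do not say how cortex RNA was prepared. The deposited values are log2 CPM at gene level (−6.017 to 14.25), with isoforms not separated. Counts and depth per library are unknown, so no counting limits are given. Of 17185 entries, 77 without a name (0.0618% of the signal) were left out, which leaves 17108 genes. Averaged over the 4 groups that hold both batches, weighted by library numbers, batch 1 and batch 2 differed by 0 for every gene. In a single group the batches could still differ. The batch had thus been removed before deposit, and the batch term in the fit accounts for that. No library was a copy of another of its group (root mean square difference 0.230 to 0.376 on the log2 scale, 97 pairs).

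The log2 values were tested as deposited, with no pseudocount or filter, in 1 fit with limma 3.58.1 under R 4.3.3 (eBayes with trend) of 17 groups and an additive batch term, with 44 residual degrees of freedom. Fold changes are deprived over undisturbed mice of the same ZT. Tests were two-sided, with Benjamini-Hochberg adjustment over the 17108 genes of a comparison and a threshold of 0.05. Groups of 3 share 1 estimate of the spread. Ratios within a family were compared by an exact permutation test (scipy 1.17.1, Python 3.11.15). Alternatives were no batch term, controls of the same batch, centring each library on its median, eBayes without the trend, leaving out the 20% of genes with the lowest mean, log2(CPM + 1), only the groups compared, a replicate block and leaving out each library. The fits were tested on simulated data. Exon lengths and overlaps came from GENCODE vM21 and promoters from RefSeq (GRCm38.p6), matched by symbol. The members and gene lists were chosen with earlier results of these data known. The lists are therefore described by counts and medians, and counts of members beside shares of all genes are description, not tests. All members are named. The 2 most correlated genes of each member and the 4 genes of smallest p at T30 of each list are named beside them. A gene that this rule names is not reported here.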

Additional observations from a re-analysis of the deposited data

Results flagged for a closer look

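One control library stood apart from the others of its group. Shank3 had 7.69 log2 CPM in the ZT12 control T12N4, against 7.90 to 7.94 in the other 4 ZT12 controls. Of 40 groups of 4 or more libraries examined (10 members at 4 control times), this was the 1 with such a gap, and about 2 would be marked by chance at 1 in 20. T12N4 was also the lowest ZT12 control for Shank1, Shank2, Dlg4, Dlgap2 and Dlgap3. It was the highest for Dlg1, and neither lowest nor highest for Dlg2, Dlg3 and Dlgap1. Without T12N4 the Shank3 change at T36 still passed, while the number of members called at T36 was 2 in place of 6.

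The change of Shank2 differed between T36 and T30, by −0.33 on the log2 scale, as tested in limma (adjusted p = 0.0148), and the call was lost without T30S4 or with batch 1 controls.

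Of the 6 members listed in both tissues, 3 differed the opposite way at T30 in every deprived library set against its control mean. The share of all genes that did so was not counted, so the 3 cannot be set against it. Shank2 differed by 0.47 in cortex and −0.77 in liver, Dlg3 by 0.09 in cortex and −0.35 in liver, and Dlg1 by 0.16 in cortex and −0.10 in liver. The difference between the tissues was not tested, and the tables were normalised separately. Liver Dlg1 and Dlg3 overlapped between T30 and ZT6 libraries.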

How the results depend on the processing

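No call of a member that has a direction at the main settings changed sign under the alternatives run. The tests across times of day and over all deprived times together give a range without a sign, so they could not change it. Results that were not called were not followed in this way. At T27, 1 member passed with each library centred on its median, in place of 3 (2794 of the 17108 genes, in place of 2810). Across times of day 3 passed with batch 1 controls in place of 6 (4835 genes, in place of 7162). At T60, 1 passed when the groups compared were fitted alone, in place of 0 (44 genes, in place of 0). The difference between the T36 and T30 changes passed for 0 members with controls of the same batch, in place of 1 (1174 genes, in place of 2082). With single libraries left out, the number of members that passed was 1 to 3 at T27, 7 to 8 at T30, 2 to 6 at T36 and 0 to 4 at T54, and 0 to 1 for the T36 minus T30 difference. Calls over all genes were not counted in these refits. The T30 calls of Shank1, Shank2, Shank3, Dlg1, Dlg4 and Dlgap1 and the T27 call of Shank2 held in all 8 alternatives and with each library of the comparison left out. The causes were not tested.

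The numbers that end the animal codes did not pair the libraries: of 37 same-numbered pairs, 4 had r over 0.1 (range −0.21 to 0.15). With these numbers as a replicate block, 2 members passed at T27, 7 at T30 and 6 at T36. Over the 17108 genes, 2624, 5344 and 2055 passed, in the same order. For ratios, the main test could pass adjustment only with most pairs at its smallest p. Leaving out a library or using batch 1 controls leaves too few libraries to pass at all. Fitting only the groups compared was not run for the 12 deprived times together. Depth is unknown, so low values cannot be weighed by their counts, and groups of 3 limit each comparison.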
